A study of Drosophila melanogaster with 4 samples.

Results

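Proneural genes give epithelial cells of Drosophila the competence to become neural, and in the wing imaginal disc they mark the places where bristles and other sense organs will form. The expression table of the series was searched for 10 such genes by name, and all 10 were found among its 15627 named genes. They were the 4 genes of the achaete-scute complex (ac, sc, l(1)sc and ase), the 3 atonal family genes (ato, amos and cato), the precursor genes sens and phyl, and the antagonist emc. Their RNA was read in discs of Pc-RNAi larvae and of wild-type (WT) larvae, with 1 library per genotype, so that every difference below is between single libraries and has no replicate error and no p-value.

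Pc encodes Polycomb, the subunit of the silencing complex PRC1 that reads methylated histone H3, and the series title asks whether it also acts positively on transcription through the histone mark H4K20me1. Discs of both groups came from larvae of the third instar kept at 25 °C. Larvae of the Pc-RNAi group carried the alleles y1 and w*, the Act5C-GAL4 driver, which makes the yeast activator GAL4 under an actin promoter that is active in most cells, and the transgene UAS-dsRNA Polycomb. Larvae of the WT group carried y1, w* and the same driver over the balancer chromosome CyO with a y+ marker, and no RNAi transgene is named for them. The labels name no balancer for the Pc-RNAi group. The RNA of Pc itself stood at 13.0 FPKM in Pc-RNAi and 14.6 FPKM in WT. FPKM is fragments mapped to a gene, divided by its transcript length and by the library's mapped total. Since reads of the transgene may enter the Pc-RNAi value, it does not check the labels, and how far Pc was reduced is not known.

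Achaete, Scute, Lethal of scute, Atonal and Amos are basic helix-loop-helix (bHLH) transcription factors that pair with Daughterless and bind DNA. They are first made in groups of cells, the proneural clusters, and lateral inhibition through Notch then leaves high levels in a single sensory organ precursor. That precursor switches on sens, a zinc finger gene that keeps proneural expression high, and later ase, cato and phyl. Emc has the helix-loop-helix but lacks the basic region, so it takes proneural proteins and Daughterless into pairs that do not bind DNA.

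The achaete-scute pair active in the disc was lower in Pc-RNAi. The gene ac, which acts in clusters for notum and wing margin bristles, stood at 16.6 FPKM in Pc-RNAi and 33.6 FPKM in WT. Its neighbour sc, which shares many enhancers with ac, stood at 16.3 FPKM in Pc-RNAi and 25.5 FPKM in WT. The WT value was 2.02 times the Pc-RNAi value for ac and 1.56 times for sc. Summed, the pair gave 33.0 FPKM in Pc-RNAi and 59.2 FPKM in WT. On the scale used for calls, log2((Pc-RNAi FPKM + 1)/(WT FPKM + 1)), which understates the change of low genes, the differences were -0.97 for ac and -0.61 for sc. The quartiles of all 8800 genes that reached 1 FPKM in either library were -0.14 and 0.14 on this scale. The difference of ac was at or above that of 3.33% of those genes, and the difference of sc at or above that of 6.15%.

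The remaining achaete-scute genes were near the bottom of the table. The gene l(1)sc, which is known mainly for its part in embryonic neuroblasts, was listed at 0 in Pc-RNAi and stood at 0.21 FPKM in WT. The precursor gene ase stood at 0.456 FPKM in Pc-RNAi and 0.961 FPKM in WT, just under the minimum of 1 FPKM for a call. Together ac and sc made up 98.6% of the summed FPKM of the complex in Pc-RNAi and 98.1% in WT, so the difference of the complex was carried by those 2 genes. The balance between them also differed, as ac was 1.02 times as abundant as sc in Pc-RNAi and 1.32 times in WT.

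**Figure D1:**
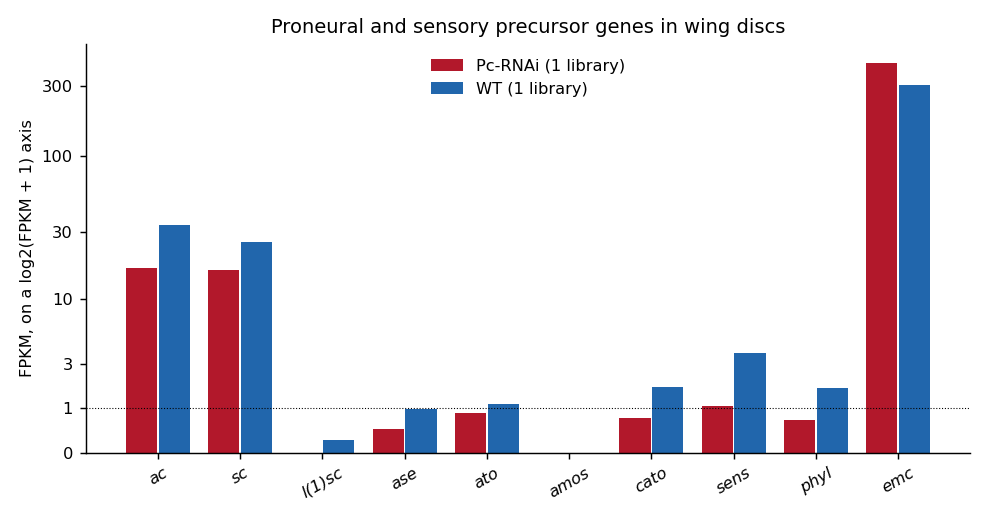
FPKM of the 10 proneural and sensory precursor genes in the Pc-RNAi library (red, left bar) and the WT library (blue, right bar), 1 library each, on a log2(FPKM + 1) axis that starts at 0, with the dotted line at 1 FPKM. The Pc-RNAi bar is the shorter for ac, sc, ase, ato, cato, sens and phyl, l(1)sc has a bar in WT alone, amos has none, and emc has the taller bar in Pc-RNAi.

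The atonal family was low in both libraries. The gene ato, which founds stretch-sensing chordotonal organs and the first photoreceptors of the eye, stood at 0.848 FPKM in Pc-RNAi and 1.12 FPKM in WT, a log2 difference of -0.20. The gene amos, which founds olfactory sensilla of the antenna, was listed at 0 in both libraries. The gene cato, which acts in precursors and sensory neurons after the proneural step, stood at 0.711 FPKM in Pc-RNAi and 1.76 FPKM in WT, a log2 difference of -0.69 and a WT value 2.48 times that of Pc-RNAi. The later-acting cato was further apart between the libraries than the founding gene ato, although all of these values were low.

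The genes that mark selected precursors, sens and phyl, showed the widest ratios among the members above 0 in both libraries. Both lay at a mean of 1 to 5 FPKM, where wide ratios were common. Of genes at that level 12.9% were at least 2-fold lower in Pc-RNAi by the ratio of FPKM and 17.4% higher. The gene sens stood at 1.06 FPKM in Pc-RNAi and 3.70 FPKM in WT, so the WT value was 3.50 times that of Pc-RNAi, and its log2 difference of -1.19 was at or above that of 2.17% of tested genes. The gene phyl, whose product brings the repressor Tramtrack to the ubiquitin ligase Sina for degradation, stood at 0.667 FPKM in Pc-RNAi and 1.76 FPKM in WT, 2.63 times as high in WT, with a log2 difference of -0.73. In the WT library sens was the most abundant of the members below ac and sc, and in Pc-RNAi it still was, but it lay only just above 1 FPKM there.

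The antagonist went the other way. The gene emc stood at 428.6 FPKM in Pc-RNAi and 305.8 FPKM in WT, with a log2 difference of 0.49. It ranked 213 among all named genes in Pc-RNAi and 312 in WT, while ac ranked 5197 in Pc-RNAi and 3205 in WT. FPKM is scaled to transcript length, so these levels can be set side by side. The RNA of emc was 13.0 times that of ac and sc summed in Pc-RNAi and 5.17 times in WT. The gene da, which encodes Daughterless, the partner of the proneural proteins, stood at 53.8 FPKM in Pc-RNAi and 53.4 FPKM in WT, so that emc was 7.97 times as abundant as da in Pc-RNAi and 5.73 times in WT. These ratios compare RNA, not protein, and were chosen after the values were seen. They are averages over whole discs and do not give the ratio within proneural clusters. Reads of the overlapping gene hng3, given below, may also enter the emc value.

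The order of the levels in Pc-RNAi was emc, ac, sc, sens, ato, cato, phyl and ase, with l(1)sc and amos at 0. In WT it was emc, ac, sc, sens, cato, phyl, ato, ase and l(1)sc, with amos at 0. With 1 library per genotype no spread is known against which to read the steps between neighbours in these orders. The change of order was that ato, with the smallest difference of the atonal genes above 0, stood above cato and phyl in Pc-RNAi and below them in WT.

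**Figure D2:**
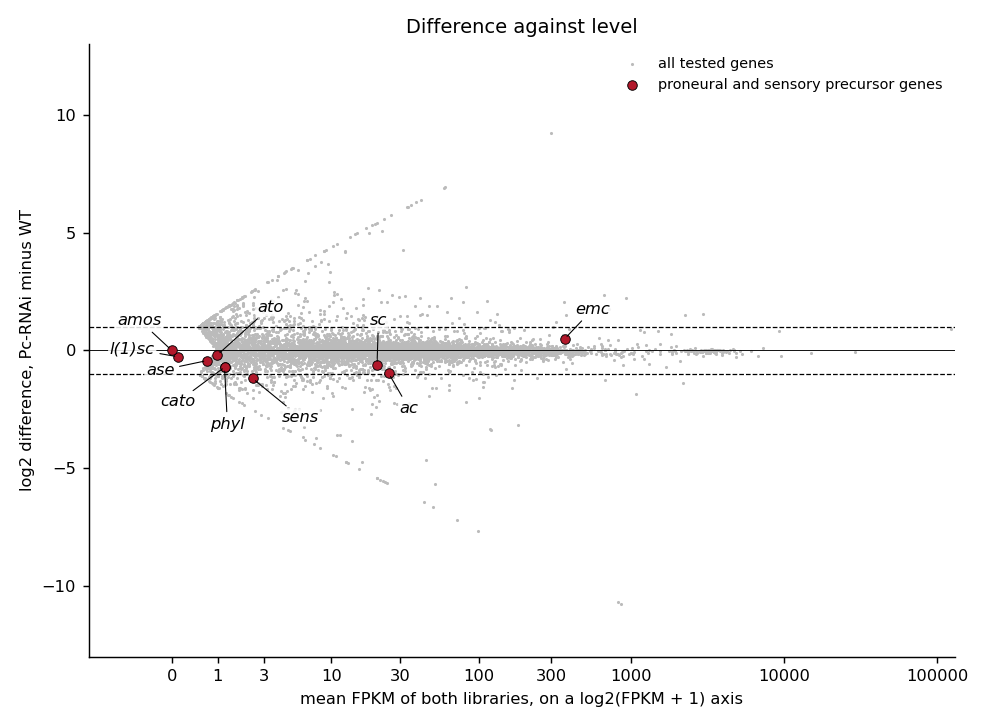
Log2 difference, Pc-RNAi minus WT, against the mean FPKM of both libraries on a log2(FPKM + 1) axis, with all 8800 tested genes in grey, the 10 members in red and dashed lines at a 2-fold difference. The grey cloud is wide at low levels, where sens, cato, phyl and ato lie, and narrow at the levels of ac, sc and emc.

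Counts of calls depend on how low values are treated. A gene was called when it reached 1 FPKM in either library and was at least 2-fold apart on the log2 scale with 1 added to both values. Of the 10 members, 7 reached 1 FPKM in either library, and l(1)sc, ase and amos did not. On that rule 1 of the 7, sens, was lower in Pc-RNAi and none was higher, against 3.2% of all tested genes called lower and 4.41% called higher. With the plain ratio of FPKM, a setting added after the values were seen, 4 of the 7 were at least 2-fold lower in Pc-RNAi, namely ac, cato, sens and phyl, against 4.45% of all 8633 genes that reached 1 FPKM and were above 0 in both libraries, and none was at least 2-fold higher, against 5.34%. Adding 0.1 in place of 1 gave the same 4 genes, against 4.72% of tested genes lower. With both libraries scaled to the same summed FPKM, ac and sens were called lower, against 3.58% of tested genes. By value alone, 8 of the 10 members were lower in Pc-RNAi, 1 was higher and 1 was at 0 in both. Among all genes above 0 in either library 47% were lower in Pc-RNAi, and among those reaching 1 FPKM 50.6%.

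The background was not the same at every level. Among genes with a mean of 1 to 5 FPKM, where sens, cato and phyl lie, 12.9% were at least 2-fold lower in Pc-RNAi by the plain ratio and 17.4% at least 2-fold higher, so a 2-fold difference was more common there than among all genes. Among genes with a mean of 10 to 50 FPKM, where ac and sc lie, 1.8% were at least 2-fold lower and 1.34% higher. In the range of 200 to 1000 FPKM, where emc lies, 1.63% were at least 2-fold higher and 0.543% lower. The difference of emc, which was within 2-fold, was at or above that of 90.6% of all tested genes.

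Genes that act upstream of the proneural clusters or beside them differed in both directions, around a median near that of all genes. All 15 genes of a list of proneural regulators were tested. Of these, 1 was called higher and none lower, beside 4.41% and 3.2% of all tested genes. By value 10 were higher in Pc-RNAi and 5 lower. Their median log2 difference was 0.04, against -0.0032 for all tested genes. The called gene was tup, a LIM-homeodomain gene of the notum, at 21.0 FPKM in Pc-RNAi and 9.58 FPKM in WT, and it was within 2-fold with both libraries at the same summed FPKM. Of the genes closest to ac and sc regulation in the notum, pnr, the GATA factor that activates the dorsocentral enhancer, stood at 26.6 FPKM in Pc-RNAi and 17.1 FPKM in WT, a log2 difference of 0.61. Its LIM-only modulator Bx stood at 10.1 FPKM in Pc-RNAi and 19.7 FPKM in WT, a log2 difference of -0.90.

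The Iroquois genes ara and caup, which switch on ac and sc in the lateral notum and veins, were nearly equal between the libraries. The gene ara stood at 36.1 FPKM in Pc-RNAi and 39.2 FPKM in WT, and caup at 36.8 FPKM in Pc-RNAi and 40.3 FPKM in WT. Their relative mirr stood at 61.1 FPKM in Pc-RNAi and 40.4 FPKM in WT. The gene h, which encodes Hairy, a direct repressor of ac, stood at 40.4 FPKM in Pc-RNAi and 35.4 FPKM in WT.

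Genes expressed in precursors leaned lower in Pc-RNAi by value, with none called. Of 16 genes in a list of precursor and asymmetric division genes, 14 were tested, none was called in either direction, and the median log2 difference was -0.32. Over all tested genes 3.2% were called lower and 4.41% higher. By value 12 of the 16 were lower in Pc-RNAi and 4 higher, beside 47% lower among all genes above 0 in either library. The share at least 2-fold lower by the plain ratio was 4.45% of all genes and 12.9% at a mean of 1 to 5 FPKM. In this list the plain ratio put 4 of the 14 at least 2-fold lower. These were nerfin-1, a zinc finger gene of neuronal precursors, at 0.375 FPKM in Pc-RNAi and 1.69 FPKM in WT, spdo, which promotes Notch signalling in asymmetric divisions, at 0.46 FPKM in Pc-RNAi and 1.67 FPKM in WT, CG32150 at 0.859 FPKM in Pc-RNAi and 2.60 FPKM in WT, and mira, an adaptor for fate determinants, at 0.513 FPKM in Pc-RNAi and 1.28 FPKM in WT. All 4 were low, with none above 3 FPKM in either library.

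At a higher level, sca, which encodes a secreted protein of proneural clusters, stood at 12.1 FPKM in Pc-RNAi and 24.2 FPKM in WT, a WT value 2.00 times that of Pc-RNAi and a log2 difference of -0.94. At the same summed FPKM sca and CG32150 were called lower, beside 3.58% of all tested genes. The ubiquitin ligase gene neur, which activates the Notch ligand Delta in precursors, stood at 4.63 FPKM in Pc-RNAi and 6.36 FPKM in WT. By contrast numb and pon, whose products are divided unequally between daughter cells, were nearly equal, with numb at 91.8 FPKM in Pc-RNAi and 91.3 FPKM in WT and pon at 31.3 FPKM in Pc-RNAi and 33.3 FPKM in WT. The precursor gene insc, which orients the division, was higher by value, at 3.21 FPKM in Pc-RNAi and 1.94 FPKM in WT.

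**Figure D3:**
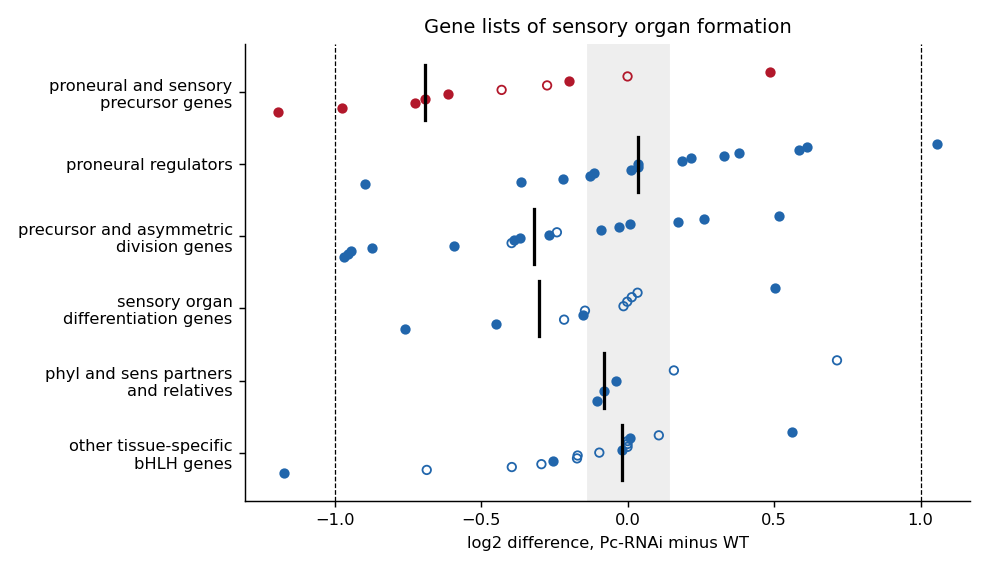
Log2 difference, Pc-RNAi minus WT, of each gene in the proneural and sensory precursor set (red) and in 5 related lists (blue), with filled points for genes reaching 1 FPKM in either library, open points for the others, black bars for the median of the filled points, grey for the central quartiles of all tested genes and dashed lines at 2-fold. The red median, -0.69, lies left of the grey band, as do those of precursor and division genes (-0.32) and sensory organ differentiation genes (-0.30). The median of the proneural regulators, 0.04, lies inside the band, as do the remaining medians.

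Sensory organ differentiation genes were mostly too low for a call. Of 10 listed, 4 were tested, and none was called in either direction, with a median of -0.30. Over all tested genes 3.2% were called lower and 4.41% higher, so a list this short could well hold none. The paired-box gene Poxn, which specifies taste bristles, stood at 4.64 FPKM in Pc-RNAi and 8.54 FPKM in WT. The homeobox gene ct, which specifies external sense organs against chordotonal organs, stood at 4.48 FPKM in Pc-RNAi and 2.86 FPKM in WT. The neuronal gene elav stood at 7.66 FPKM in Pc-RNAi and 10.8 FPKM in WT, sv at 0.883 FPKM in Pc-RNAi and 1.09 FPKM in WT, and futsch at 0.351 FPKM in Pc-RNAi and 0.569 FPKM in WT.

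The partners of Phyl were nearly equal between the libraries. The ligase gene sina stood at 44.0 FPKM in Pc-RNAi and 45.2 FPKM in WT, ttk, which encodes Tramtrack, at 73.8 FPKM in Pc-RNAi and 78.2 FPKM in WT, and ebi, which acts in the same degradation, at 53.7 FPKM in Pc-RNAi and 57.7 FPKM in WT. Of this list of 5, 3 were tested and none was called in either direction, beside 3.2% of all tested genes called lower and 4.41% higher. The relatives sinah, at 0.641 FPKM in Pc-RNAi and listed at 0 in WT, and sens-2, at 0.182 FPKM in Pc-RNAi and 0.0589 FPKM in WT, were below the minimum.

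The achaete-scute genes lie in a row near the tip of the X chromosome, and their neighbours did not share a direction. The pigment gene y, the protein-coding gene next to ac, stood at 0.117 FPKM in Pc-RNAi and 0.859 FPKM in WT, 7.31 times as high in WT. Because the WT genotype on the labels carries a y+ marker on CyO and the Pc-RNAi genotype names none, the marker cannot be told apart from the RNAi at y, and the labels do not give how far the marked segment extends, so that the same holds for ac and sc if it includes them. Between l(1)sc and ase the protease gene Pgcl was listed at 0 in both libraries. Cyp4g1, on the far side of ase, stood at 3.48 FPKM in Pc-RNAi and 0.829 FPKM in WT and was called higher. The long gene CG32816, within whose span all of the achaete-scute genes lie, stood at 1.03 FPKM in Pc-RNAi and 1.04 FPKM in WT.

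**Figure D4:**
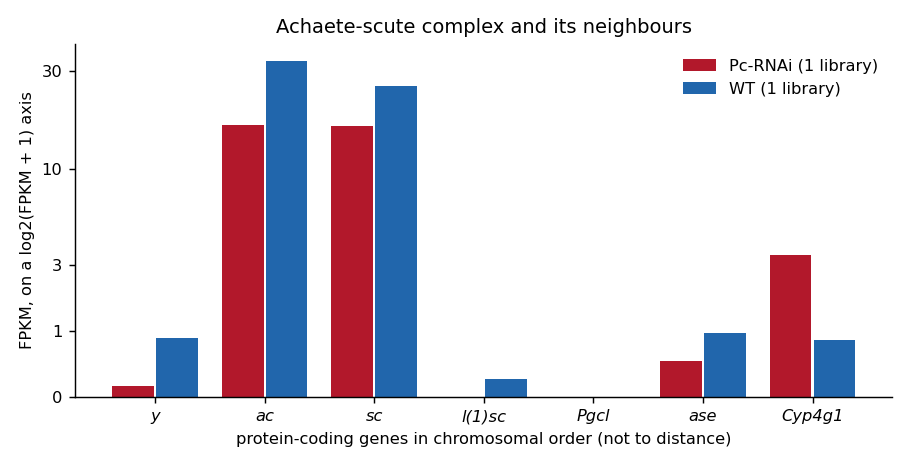
FPKM in the Pc-RNAi library (red, left bar) and the WT library (blue, right bar), 1 library each, of the protein-coding genes of the achaete-scute region in chromosomal order, on a log2(FPKM + 1) axis that starts at 0. The Pc-RNAi bar is the shorter for y, ac, sc and ase, l(1)sc has a bar in WT alone, Pgcl has none, and Cyp4g1 has the taller bar in Pc-RNAi.

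The neighbours of all members were then counted. Of 46 distinct genes within 3 places of a member in the gene order of the Release 6 annotation, 35 were matched in the table and 23 were tested, of which 2 were called higher and none lower, with a median log2 difference of 0.04, beside 4.41% of all tested genes called higher and 3.2% lower. Besides Cyp4g1 the called gene was CG31789, 2 places from amos, at 3.65 FPKM in Pc-RNAi and 0.224 FPKM in WT. Beside cato, prim, listed as CG15704, stood at 0.251 FPKM in Pc-RNAi and 1.32 FPKM in WT, 5.27 times as high in WT and within 2-fold on the scale used for calls. Near sens, flr stood at 83.5 FPKM in Pc-RNAi and 83.3 FPKM in WT and CG10222 at 15.1 FPKM in Pc-RNAi and 17.4 FPKM in WT. The gene hng3 overlaps emc in that annotation and stood at 39.4 FPKM in Pc-RNAi and 21.6 FPKM in WT, a log2 difference of 0.84. The libraries carry no strand information, so reads of hng3 and emc cannot be told apart where they overlap.

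Markers of the tissue and of other cells also differed between the libraries, and their part in the values above was not tested. The counts that follow stand beside 3.2% of all tested genes called lower and 4.41% called higher. All 9 markers of the disc epithelium were above 1 FPKM in both libraries, with a summed 526.9 FPKM in Pc-RNAi and 679.6 FPKM in WT. Of the 9, 3 were called lower, namely vg, ap and Dll. By value 7 of the 9 were lower, while hth and wg were higher. All 6 haemocyte markers were higher by value and 4 were called higher, with a sum of 64.2 FPKM in Pc-RNAi and 25.3 FPKM in WT. Of the tracheal markers 2 of 5 were called lower, and their sum was 351.0 FPKM in Pc-RNAi and 618.9 FPKM in WT, a gap carried mostly by obst-A at 20.2 FPKM in Pc-RNAi and 220.0 FPKM in WT. Of 5 fat body markers 1 was called lower, with a sum of 2339 FPKM in Pc-RNAi and 3908 FPKM in WT. That gap was carried mostly by the called gene, Lsp1gamma, at 465.4 FPKM in Pc-RNAi and 1675 FPKM in WT, while Fbp1 stood at 801.1 FPKM in Pc-RNAi and 762.4 FPKM in WT. None of the 5 myoblast markers was called, and their sum was 56.5 FPKM in Pc-RNAi and 54.8 FPKM in WT.

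Of 6 neuron and glia markers 5 were tested and none was called in either direction, with a sum of 125.0 FPKM in Pc-RNAi and 123.9 FPKM in WT, most of it from nrv2. By the plain ratio 2 of the 5 were at least 2-fold higher, moody at 6.13 FPKM in Pc-RNAi and 2.71 FPKM in WT and Rbp9 at 1.01 FPKM in Pc-RNAi and 0.352 FPKM in WT, and 1 was lower, n-syb at 0.289 FPKM in Pc-RNAi and 1.09 FPKM in WT. The shares by that ratio were 5.34% higher and 4.45% lower over all genes. At a mean of 1 to 5 FPKM they were 17.4% and 12.9%. The glial marker repo was below 1 FPKM in both libraries. Of 6 eye-antennal markers 3 were tested and none was called in either direction, with a sum of 23.4 FPKM in Pc-RNAi and 22.6 FPKM in WT. Among these eya stood at 11.6 FPKM in Pc-RNAi and 8.22 FPKM in WT, so at 7.88 FPKM in Pc-RNAi and 6.17 FPKM in WT, and ss, at least 2-fold lower by the plain ratio, at 3.32 FPKM in Pc-RNAi and 6.91 FPKM in WT. The others, ey, toy and gl, were below 1 FPKM in both libraries, with gl at 0 in Pc-RNAi. In whole discs fewer precursor cells and less RNA in each cannot be told apart.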

How the data were processed

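The authors deposited 1 table of FPKM values with a column for each RNA library, Pc-RNAi and WT, and no counts. Per the submitters' processing notes TopHat2 2.0.11, Cufflinks, Bowtie 1.0.0, SICER and CASAVA 1.4 were used, with build dm3 and no role stated. Not given in the sources used here were annotation, filters and settings. The single row without a gene name held 0.206% of all FPKM in Pc-RNAi and 0.127% in WT and was dropped.

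Sequencing depth is unknown, so no counting interval is given. For 1159 genes whose values both lay between 0.005 and 0.3 FPKM, the commonest Pc-RNAi to WT ratio was 0.96 (19.8% of genes within 5% of it), which would correspond to a depth 1.04 times that of WT. Of all named genes 3292 were at 0 in Pc-RNAi and 4170 in WT, so the libraries were not alike at low values.

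From the deposited values the log2 difference with a pseudocount of 1 was computed (Python 3.11.15, pandas 2.3.3, numpy 2.4.6). Members were matched to the Release 6 gene table by symbol (10 of 10), for names and gene order alone. The H4K20me1 peaks follow dm3 and were not used here. The 5 lists and the members were chosen with earlier results of these data known. The rule for named genes took all members, in each of the 5 lists the called genes and up to 4 with the largest differences, and neighbours within 3 places, of which the text names a part and counts the rest. Named outside this rule, after their values were seen, were da, h, ara, caup, mira, neur, numb, pon, insc, sina, sv, twi, dimm, HLH4C, Fer3, CG32816 and the markers. In 7 other settings the pseudocount, the minimum or the scaling was varied, and the plain ratio was added after the values were seen.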

Additional observations from a re-analysis of the deposited data

How the results depend on the processing

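None of the 9 members above 0 in a library changed direction under the settings run, but this could not have come out otherwise. A change of pseudocount or minimum, or the plain ratio, cannot change a direction. The log2 factor of the largest scaling was -0.104, and the smallest of these members' differences was -0.20, for ato. It is therefore no sign of robustness. The log2 difference of ac ranged from -1.07 to -0.84 over these settings with the plain ratio left aside, that of sc from -0.71 to -0.52, that of sens from -1.72 to -0.52 and that of emc from 0.38 to 0.50. The number of members called lower was 1 as reported, 4 with a pseudocount of 0.1 (ac, cato, sens and phyl), 4 by the plain ratio, and 2 (ac and sens) when the libraries were brought to equal sums. It was 0 when 5 was added to each value, and 0 when genes had to reach 5 FPKM, which left 3 members to test. For precursor and asymmetric division genes it was 0 as reported, 4 with a pseudocount of 0.1, 4 by the plain ratio and 2 (sca and CG32150) at equal sums. The regulators called higher were 0 at equal sums and 0 with a pseudocount of 5, against 1, tup, as reported. With a pseudocount of 5 the other bHLH genes called lower were 0, against 1, net, as reported. Over all genes a pseudocount of 0.1 gave 415 lower and 570 higher, a pseudocount of 5 gave 107 and 134, and a minimum of 5 FPKM gave 186 and 189, against 282 and 388 as reported. Scaling both libraries to the same sum moved the median of all tested genes to -0.10, because the largest entry held 16.4% of the sum in Pc-RNAi and 9.41% in WT. Without that entry in the scaling the median was 0.01. No paired analysis was possible because each genotype has 1 library. Low values limit what can be said of l(1)sc, ase, ato, cato, phyl and sens, whose depth in reads is unknown.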

Other observations

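Other tissue-specific bHLH genes gave a mixed picture. Of 15 listed, 5 reached 1 FPKM in either library, and their median log2 difference was -0.02. Of these 5, 1 was called lower and none higher, beside 3.2% and 4.41% of all tested genes. By value 9 of the 15 were lower in Pc-RNAi, 3 were higher and 3 were at 0 in both. The bHLH gene net, which represses vein formation between the wing veins, was called lower, at 7.97 FPKM in Pc-RNAi and 19.2 FPKM in WT. The heart and lymph gland gene Hand stood at 1.84 FPKM in Pc-RNAi and 0.923 FPKM in WT. The mesoderm gene twi, a marker of adepithelial myoblasts, was nearly equal, at 11.2 FPKM in Pc-RNAi and 11.1 FPKM in WT. Below the minimum, Oli, a relative of vertebrate Olig genes, stood at 0.0666 FPKM in Pc-RNAi and 0.715 FPKM in WT, and Fer2 at 0.118 FPKM in Pc-RNAi and 0.47 FPKM in WT. The genes dimm, HLH4C and Fer3 were listed at 0 in both libraries.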
